A study of Mus musculus with 44 samples.

Results

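Mouse medulloblastoma lines GTML3 and preGTS1 were compared for how their RNA responded to DOX. For each gene, the DOX response of a line was its level under DOX minus its level under DMSO, and the difference between the lines was the preGTS1 response minus the GTML3 response. The 12 RNA libraries of the treated lines, out of 44 samples in the series, fall into 4 groups of 3: GTML3 with DMSO, GTML3 with DOX, preGTS1 with DMSO and preGTS1 with DOX. The labels give the sources as GTML and preGTS1 medulloblastoma tumor, and the agent as DMSO or DOX, with no dose, time or culture detail used here. Levels are log2 CPM, the log2 of reads scaled to library size as the authors deposited them, and all 15926 genes of the table were tested. A gene was taken to respond in opposite directions when both lines passed an adjusted p of 0.05 with at least a 2-fold change of opposite sign and the difference between responses also passed. There were 106 such genes. A gene was taken to respond in 1 line only when that line changed at least 2-fold, the difference passed, and the 95% confidence interval of the other line's response lay within 1.5-fold either way, which held for 235 genes in GTML3 and 305 in preGTS1.

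GTML mice carry a MYCN transgene that is on in cells where the promoter of the glutamate transporter gene Slc1a2 (Glt1) drives the tTA transactivator, and DOX, doxycycline, keeps tTA off the transgene. MYCN is a MYC family transcription factor that drives growth and ribosome production. GTS tumors come from a related model that holds the rtTA transactivator, which DOX switches on, under a Sox9 promoter. DOX is thus the switch of engineered transactivators in these models, and an effect of DOX itself cannot be told apart from that of the transgenes. The level of Mycn fell with DOX in both lines, as given below. Each line is a single line, so line and tumor of origin cannot be told apart either. No label says that the 3 libraries of a group came from separate cultures, and p-values measure the spread between these libraries, which may be technical.

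Depth was 15.56 to 20.718 M reads per library in GTML3 with DMSO, 10.861 to 16.688 in GTML3 with DOX, 23.967 to 24.672 in preGTS1 with DMSO and 16.371 to 17.509 in preGTS1 with DOX. A gene with 0 reads is listed at −6.16. Replicate 1 of GTML3 with DOX stood apart from replicates 2 and 3 (chi-square per degree of freedom 59.0 and 83.4, against 4.61 between those). Replicate 2 of preGTS1 with DOX (32.8 and 35.9, against 14.1) and replicate 3 of preGTS1 with DMSO (29.6 and 28.6, against 9.83) also stood apart from the others of their groups. These 3 libraries had the lowest array weights in limma, 0.413, 0.367 and 0.612. Mycn, which the table does not split into transgene and mouse gene, fell in both lines, by 3.59 ± 0.15 (log2, SE) in GTML3 and by 4.86 ± 0.15 in preGTS1. The line markers Mycn, Otx2, Neurod1 and Pax6 were read in both lines, while Zic1 and Sox2 were at mean levels of −4.17 and −2.13 in GTML3 with DMSO against 5.94 and 4.12 in preGTS1. Of the markers of other cells, 2 of 17 for microglia and macrophages, 8 of 20 for endothelial and mural cells, 4 of 12 for fibroblasts, 1 of 17 for blood cells and none of 11 for ependyma and choroid were in the table. Of the 4 fibroblast markers, 3 had a higher response in preGTS1 and none a lower one. The oligodendrocyte markers were mixed, with 4 of 8 higher and 2 lower. The values of both lists stand with the matrix and glial genes.

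Promoters of 4 genes that the results turn on show where their transcription starts, from RefSeq (GRCm38.p6), each running from 250 bases before to 50 bases after a start. Tle2 responded in opposite directions, its neighbour Tle6 fell in preGTS1 only, Lfng fell in GTML3 only and Vim rose in preGTS1 only. Capitals mark CACGTG, the E-box that MYC family proteins bind, which reads the same on both strands. The Tle2 window lies on the plus strand of chromosome 10 (chr10:81575037-81575336), and that of Tle6 on the minus strand of the same chromosome (chr10:81600851-81601150). Lfng lies on chromosome 5 (chr5:140607091-140607390, plus strand) and Vim on chromosome 2 (chr2:13574061-13574360, plus strand).
Tle2: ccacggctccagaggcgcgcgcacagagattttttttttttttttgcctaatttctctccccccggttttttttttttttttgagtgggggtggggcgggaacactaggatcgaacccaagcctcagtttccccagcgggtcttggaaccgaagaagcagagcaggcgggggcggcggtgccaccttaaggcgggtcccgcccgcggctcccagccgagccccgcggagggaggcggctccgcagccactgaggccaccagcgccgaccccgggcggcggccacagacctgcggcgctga
Tle6: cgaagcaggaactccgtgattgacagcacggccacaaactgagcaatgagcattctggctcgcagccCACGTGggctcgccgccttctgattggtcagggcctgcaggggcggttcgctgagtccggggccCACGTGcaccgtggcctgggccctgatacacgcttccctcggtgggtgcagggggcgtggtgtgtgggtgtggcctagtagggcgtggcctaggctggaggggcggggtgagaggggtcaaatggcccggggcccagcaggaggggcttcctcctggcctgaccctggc
Lfng: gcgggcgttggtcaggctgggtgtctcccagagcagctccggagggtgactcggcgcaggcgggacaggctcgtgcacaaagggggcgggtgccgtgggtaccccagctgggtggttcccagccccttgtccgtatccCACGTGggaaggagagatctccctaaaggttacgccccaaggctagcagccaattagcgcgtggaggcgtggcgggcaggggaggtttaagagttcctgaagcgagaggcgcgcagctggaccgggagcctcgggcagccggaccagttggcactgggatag
Vim: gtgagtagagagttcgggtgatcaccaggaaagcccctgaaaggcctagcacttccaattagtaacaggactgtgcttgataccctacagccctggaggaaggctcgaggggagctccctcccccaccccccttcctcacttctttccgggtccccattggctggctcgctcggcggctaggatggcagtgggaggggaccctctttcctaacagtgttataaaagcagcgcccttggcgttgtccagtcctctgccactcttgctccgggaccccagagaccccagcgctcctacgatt
Tle6 held 2 copies of CACGTG, Lfng held 1, and Tle2 and Vim held none in these windows. A further RefSeq promoter window of Tle6, at chr10:81597318-81597617, held none. The motif was in 9.84% of the 12880 promoters matched to 10025 of the genes tested. Among the classes it was in 3 of 57 promoters of genes that fell in GTML3 and rose in preGTS1, and in 6 of 44 promoters of those with the reverse pattern. For genes of GTML3 only it was in 18 of 167 promoters of those that rose and 8 of 70 of those that fell. For genes of preGTS1 only the counts were 11 of 161 for those that rose and 14 of 136 for those that fell. These shares ran from 5.26% to 13.6%, on both sides of that of all genes, and are given as a description. They count promoters and not genes, and overlapping windows of the same gene, as at Rap1gap, can hold the same motif. The outer ends of the Tle2 and Tle6 windows are 26.1 kb apart, and the 2 genes overlap in RefSeq at their far ends, so reads there could be counted for either gene where strand was not used.

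The responses differed between the lines at many genes. Across genes, the Pearson correlation of the 2 responses was 0.664, a description over genes, which are not independent replicates. By limma with Benjamini-Hochberg adjustment, the response differed between lines for 6721 genes (42.2%), with 2718 higher in preGTS1 (17.1%) and 4003 lower (25.1%). Of the genes that differed, 2789 changed in the same direction in both lines, and of these 1830 changed more in preGTS1 and 959 more in GTML3. Opposite signs in both lines, at any size, were found for 884. A response past the threshold was found in GTML3 alone for 1341 and in preGTS1 alone for 1630, while 77 passed in neither line. Under DOX the gap between the lines was wider than under DMSO for 4236 of the 6721 (63.0%), against 9305 of all 15926 genes (58.4%). The lines changed places, with opposite differences of at least 2-fold under DMSO and under DOX, at 62 genes, of which 15 were among the opposite genes.

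**Figure D1:**
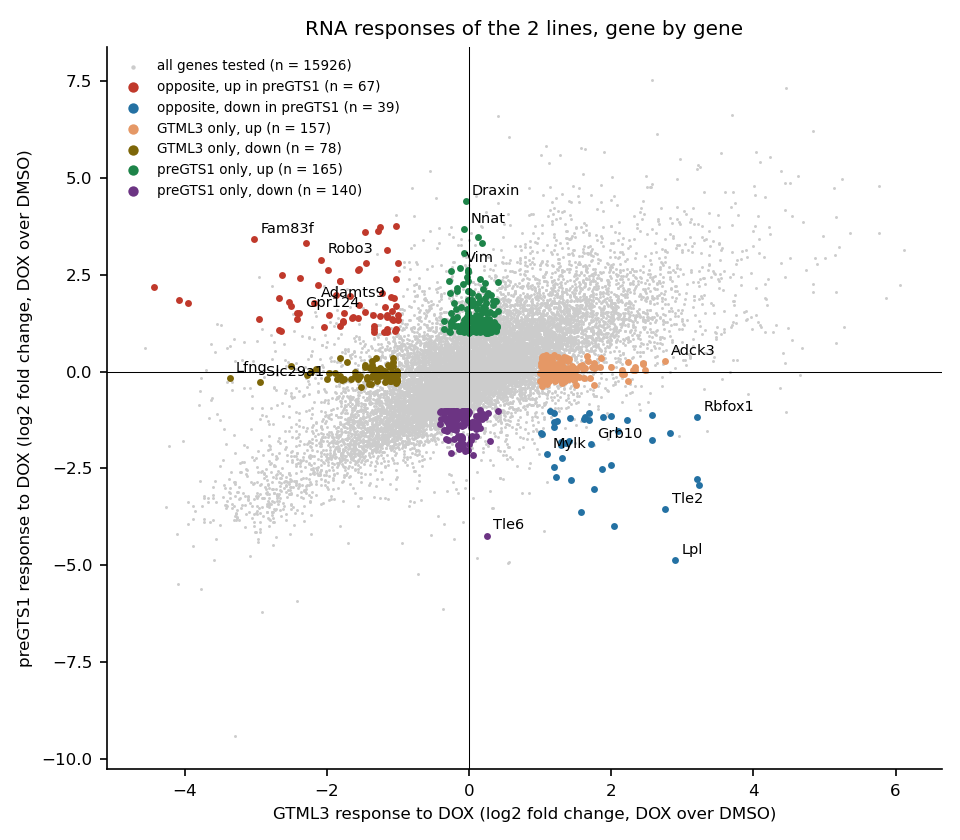
Each point is a gene, placed by its log2 fold change with DOX in GTML3 (horizontal) and in preGTS1 (vertical), with the genes of each class in color and all 15926 genes tested in grey. The opposite genes lie in the upper left (67) and lower right (39), and the genes of 1 line lie along the axes.

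Of the opposite genes, 67 fell in GTML3 and rose in preGTS1 (0.421% of the genes tested), with a median log2 fold change of −1.56 in GTML3 and 1.66 in preGTS1. Of the 69 axon guidance genes used below, 5 were among the 67, against 0.421% of all genes. The matrix list had 3 of 74, and the list of p53 targets and arrest genes 3 of 38. The lists were chosen with earlier results of these data known. The median level was 1.74 log2 CPM with DMSO and 0.01 with DOX in GTML3, and 2.58 and 4.67 in preGTS1. The 3 DOX libraries did not overlap the 3 DMSO libraries in GTML3 for 59 of the 67, and in preGTS1 for all 67. Of all genes, 32.9% had every DOX library below every DMSO library in GTML3, and 37.5% had every DOX library above in preGTS1. These responses chose the genes, and their values are a description. At the edge of the 2-fold bound, Plk3 and Plagl1 had a smaller response of 1.001 and 1.003 (log2), while Gm4997 and Ifit2 missed it at 0.987 and 1.0.

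Robo3, an axon guidance receptor that governs the crossing of the midline by commissural axons, changed places between the lines. In GTML3 its DMSO libraries held 3.35, 3.45 and 3.40 log2 CPM and its DOX libraries 1.73, 1.12 and 1.11. In preGTS1 they held 0.32, −0.32 and −0.74 with DMSO and 2.52, 3.00 and 2.42 with DOX. The groups did not overlap in either line, which was required for naming. On the log2 scale preGTS1 was lower than GTML3 by 3.65 with DMSO and higher by 1.33 with DOX. The response was −2.08 ± 0.276 (SE) in GTML3 and 2.89 ± 0.276 in preGTS1, and the difference between them 4.98 ± 0.391 (adjusted p = 1.39e-07). Adamts9, a secreted metalloprotease that cuts proteoglycans such as versican, stood at 4.38, 4.36 and 4.50 in GTML3 with DMSO and 2.48, 1.92 and 2.29 with DOX. In preGTS1 it stood at 4.87, 4.88 and 4.83 with DMSO and 6.66, 6.59 and 6.65 with DOX. The lines were close with DMSO and far apart with DOX, with differences of 0.45 and 4.41 between the lines (log2). Vcan, which encodes versican and was chosen for mention after its values were seen, had the reverse responses, 1.63 ± 0.453 in GTML3 and −1.18 ± 0.453 in preGTS1. In GTML3 it had only 18 reads with DMSO and 37 with DOX, so its rise there rests on few reads. A link between Adamts9 and Vcan was not tested.

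Cdh11, a type II cadherin, stood at 5.88, 6.12 and 6.11 in GTML3 with DMSO and at 4.04, 4.36 and 4.43 with DOX. In preGTS1 the same gene stood at 3.40, 3.21 and 3.12 with DMSO and at 4.96, 4.55 and 4.77 with DOX. The lines were farther apart with DMSO than with DOX, preGTS1 minus GTML3 being −2.79 and 0.49. Cd9, a tetraspanin of the cell surface, responded in the same directions as Cdh11. It went from 4.08, 3.77 and 3.97 to 2.65, 1.95 and 2.55 in GTML3 and from 5.47, 5.56 and 5.64 to 6.98, 6.76 and 7.06 in preGTS1. Its gap between lines widened instead, from 1.62 with DMSO to 4.55 with DOX. The difference between responses was 3.28 ± 0.188 for Cdh11 and 2.93 ± 0.218 for Cd9. Gpr124, an adhesion receptor that helps WNT7 signal, had responses of −2.39 and 1.51, and Lmo4, a LIM-only transcription cofactor, of −1.97 and 1.45. Lama1, the laminin alpha 1 chain of basement membranes, had −1.65 and 1.39, and Rassf3, a protein with a Ras association domain, −1.47 and 1.54. A lack of overlap between DOX and DMSO libraries in both lines was required for naming these 8 genes, and is no result. Gpr124 overlaps another gene tested, Brf2, in RefSeq.

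The reverse pattern, up in GTML3 and down in preGTS1, was held by 39 genes (0.245%), with medians of 1.63 and −1.76. The DOX and DMSO libraries did not overlap for 38 of the 39 in GTML3 and for 38 in preGTS1. Of all genes, 37.9% lay apart upward in GTML3 and 35.6% downward in preGTS1, and the genes were chosen by these responses. Tle2, a Groucho family corepressor that binds DNA-bound repressors such as HES proteins, was low in GTML3 and high in preGTS1 before DOX. Its GTML3 libraries held 1.36, 1.15 and 1.54 log2 CPM with DMSO and 4.22, 4.21 and 3.89 with DOX. Its preGTS1 libraries held 4.48, 4.18 and 4.52 with DMSO and 0.96, 1.35 and 0.22 with DOX. Each line under DOX thus lay near where the other lay under DMSO. The responses were 2.76 ± 0.239 and −3.55 ± 0.239, and the difference −6.31 ± 0.338 (adjusted p = 3.6e-09).

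Rbfox1, a splicing factor of neurons and muscle, also changed places. It went from 1.54, 1.93 and 2.02 to 5.03, 5.0 and 5.10 in GTML3 and from 3.43, 3.41 and 3.53 to 1.91, 2.36 and 2.56 in preGTS1, with a difference of −4.39 ± 0.247. Grb10, an imprinted adaptor that dampens insulin receptor signalling, did not: it stood at 0.97 to 3.11 in GTML3 and at 7.32 to 9.30 in preGTS1. Within these ranges it rose by 1.71 ± 0.121 in GTML3 and changed by −1.88 ± 0.121 in preGTS1. Kcnab1, a beta subunit of potassium channels, and Mylk, myosin light chain kinase, were the other way round, both higher in GTML3. Kcnab1 went from 6.64, 6.68 and 6.69 to 7.85, 7.96 and 7.92 in GTML3 and from 2.85, 2.36 and 2.52 to 0.74, 1.51 and 1.63 in preGTS1. Mylk had responses of 1.09 and −2.12. At Grb10, Kcnab1 and Mylk the lines did not overlap under either agent. Bhlhe40, a transcriptional repressor tied to the clock and to hypoxia, had 1.42 and −1.2. Rap1gap, which shuts off the GTPase RAP1, had 1.61 and −1.21, and Ydjc had 1.31 and −2.23. Ydjc overlaps Ccdc116 in RefSeq, itself one of the 39.

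**Figure D2:**
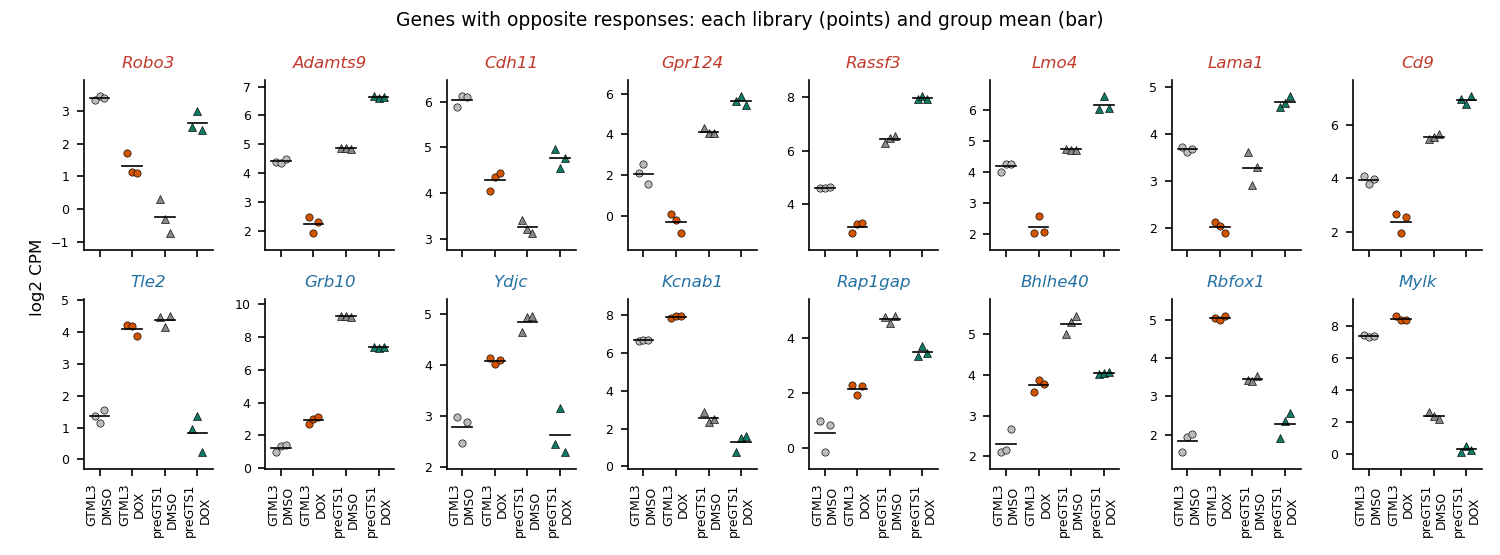
Log2 CPM of each library (points, circles for GTML3 and triangles for preGTS1) and group means (bars) for the 16 named genes with opposite responses, each panel with its own axis. In the upper row GTML3 falls and preGTS1 rises with DOX, as for Robo3 (3.35 to 3.45 against 1.11 to 1.73 in GTML3), and in the lower row the reverse holds.

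The count of opposite genes moved with the treatment of low levels. With a CPM of at least 1 asked in all 12 libraries, 27 of the 67 and 11 of the 39 were left, and with log2(CPM + 1) in place of the deposited scale, 26 and 14. Without replicate 1 of GTML3 with DOX the count was 89 for genes up in preGTS1 and 37 for genes down. Of the 67 genes, 61 were among those 89. Without replicate 2 of preGTS1 with DOX the counts were 61 and 42, and without replicate 3 of preGTS1 with DMSO 70 and 44.

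Responses in GTML3 only were found for 157 genes that rose (0.986%) and 78 that fell (0.49%). The median response of the 157 was 1.23 in GTML3 and 0.08 in preGTS1, and that of the 78 was −1.29 and −0.09. In GTML3 the DOX libraries lay apart from the DMSO libraries for all of them, against 37.9% (upward) and 32.9% (downward) of all genes, and this response chose the genes. Among the genes that rose, Adck3 (Coq8a), which serves coenzyme Q synthesis, went from 2.16, 2.15 and 1.85 to 4.80, 4.88 and 4.72 in GTML3. In preGTS1 it was at 4.03, 3.69 and 4.07 with DMSO and 4.25, 4.32 and 4.05 with DOX. The GTML3 response was 2.75 ± 0.139 and the preGTS1 response 0.28 ± 0.139 (adjusted p = 0.0903). DOX thus brought GTML3 from below to above the preGTS1 range.

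Rraga, a Rag GTPase that reports amino acids to mTORC1, was at a like level in both lines under DMSO. It went from 3.20, 3.10 and 3.29 to 5.59, 5.64 and 5.69 in GTML3, while preGTS1 held 3.67, 3.03 and 3.53 with DMSO and 3.61, 3.49 and 3.80 with DOX. Gm166, a predicted gene that overlaps Phkg2, rose by 2.44 ± 0.162 in GTML3 from a like start in both lines. Tppp, a protein that promotes tubulin polymerization, rose by 2.34 ± 0.165, and Thnsl2, a threonine synthase-like enzyme, by 2.48 ± 0.138. Fkbp9, a prolyl isomerase of the endoplasmic reticulum, rose by 2.34 ± 0.1 in GTML3 and still stayed below preGTS1, where all 6 libraries lay between 8.04 and 8.31. For the preGTS1 responses of these 4 the values were 0.19, 0.05, 0.04 and 0.13. Adck3 and Tppp overlap Cdc42bpa and Gm6263 in RefSeq.

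Among the genes that fell in GTML3 only, Lfng, the Lunatic Fringe glycosyltransferase that tunes NOTCH receptors, had the largest change. Its GTML3 libraries held 4.36, 4.26 and 4.10 with DMSO and 1.13, 0.90 and 0.60 with DOX, and its preGTS1 libraries held 5.0, 4.87 and 5.18 and then 4.65, 5.14 and 4.73. The preGTS1 groups overlapped. The responses were −3.37 ± 0.162 and −0.17 ± 0.162, and the difference 3.19 ± 0.23 (adjusted p = 5.38e-08). Ezr, ezrin, which ties actin to the membrane, went from 8.33, 8.28 and 8.32 to 5.71, 5.91 and 5.80 in GTML3. In preGTS1 it held 7.37, 7.39 and 7.59 with DMSO and 7.56, 7.68 and 7.55 with DOX. The order of the lines thus turned at Ezr. Slc29a1, a nucleoside transporter, fell by 2.94 in GTML3, and its small fall in preGTS1 (−0.28 ± 0.084, adjusted p = 0.00768) also passed the test, within the 1.5-fold bound.

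Further genes of this class serve energy metabolism or the membrane. Pfkfb3, which makes a fructose bisphosphate that activates glycolysis, fell by 2.28 in GTML3, and Ak4, a mitochondrial adenylate kinase, by 2.23. Plscr1, a phospholipid scramblase, fell by 2.15. The preGTS1 responses of these genes were −0.08, −0.02 and 0.06, none past the threshold. Their preGTS1 libraries stayed within 5.74 to 5.92 for Pfkfb3, 6.99 to 7.18 for Ak4 and 3.61 to 3.89 for Plscr1.

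Responses in preGTS1 only were found for 165 genes that rose (1.04%) and 140 that fell (0.879%). The median response of the 165 was 1.32 in preGTS1 and 0.06 in GTML3, and that of the 140 was −1.21 and −0.15. Of 27 neuronal microtubule and growth cone genes, 6 were among the 165, against 1.04% of all genes. Growth factor feedback and immediate early genes had 6 of 40, and axon guidance genes 5 of 69. The lists were chosen with earlier results of these data known. Draxin, a secreted repellent of growing axons, held 3.55, 3.78 and 3.37 in preGTS1 with DMSO and 7.92, 8.16 and 7.82 with DOX. In GTML3 it held 4.92, 4.97 and 5.11 with DMSO and 4.95, 5.06 and 4.85 with DOX. The GTML3 groups overlapped, and preGTS1 went from below them to above them. The preGTS1 response was 4.40 ± 0.115, the GTML3 response −0.05 ± 0.115 and the difference 4.45 ± 0.162 (adjusted p = 6.6e-11).

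Nnat, neuronatin, an imprinted membrane proteolipid of the developing brain, held 6.11, 6.10 and 6.59 in preGTS1 with DMSO and 9.77, 10.24 and 9.82 with DOX. In GTML3 it was at 11.98 to 12.27 in all 6 libraries. The rise in preGTS1 left it below GTML3. Slit1, a ligand of ROBO receptors, held 2.32, 2.29 and 2.58 and then 5.77, 6.17 and 5.66 in preGTS1, against 1.85 to 2.34 in GTML3. Robo2, a SLIT receptor chosen for mention after its values were seen, was in the same class, with 2.07 ± 0.08 in preGTS1 and a fitted change that rounds to 0.00 in GTML3. Slit1 and Robo2 thus rose in preGTS1 only, while Robo3, described above, also fell in GTML3. A link between Slit1 and Robo2 was not tested.

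Vim, the intermediate filament vimentin of glia, progenitors and mesenchyme, held 8.41, 8.38 and 8.29 in preGTS1 with DMSO and 11.08, 11.03 and 11.02 with DOX. In GTML3 it lay between 0.74 and 1.61 under both agents. The lines were far apart with DMSO and farther apart with DOX, by 7.07 and 9.88 (log2). Dusp4, a phosphatase that turns off MAP kinases, rose by 3.33 ± 0.0969 in preGTS1, with 0.18 ± 0.0969 in GTML3. Kif5a, a kinesin heavy chain of neurons, rose by 3.05 ± 0.157, with −0.07 ± 0.157 in GTML3. Draxin, Nnat and Kif5a overlap Mad2l2, Blcap and Dctn2 in RefSeq.

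Tle6, a Groucho family member next to Tle2, led the genes that fell in preGTS1 only. It held 6.37, 6.43 and 6.35 with DMSO and 2.27, 2.26 and 1.94 with DOX, while GTML3 held 5.48, 5.54 and 5.53 with DMSO and 5.63, 5.71 and 5.96 with DOX. The GTML3 groups did not overlap, but that response, 0.25 ± 0.108, missed the threshold (adjusted p = 0.0523). The preGTS1 response was −4.23 ± 0.108. Nudt14, which hydrolyses UDP-sugars, was at a like level in both lines under DMSO, 5.43 to 5.51 in GTML3 and 5.39 to 5.51 in preGTS1. With DOX it stood at 5.28, 5.55 and 5.39 in GTML3 and at 3.31, 3.41 and 3.5 in preGTS1. Eif1a, a translation start factor, had −2.09 ± 0.107 in preGTS1, and its GTML3 response of −0.26 ± 0.107 also passed (adjusted p = 0.0406). Rpl22l1, a ribosomal protein paralog, had −1.99, Fam13a −2.03 and the predicted gene Gm11814 −2.16. Eif1a and Rpl22l1 belong to families with close copies, between which reads could be split.

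**Figure D3:**
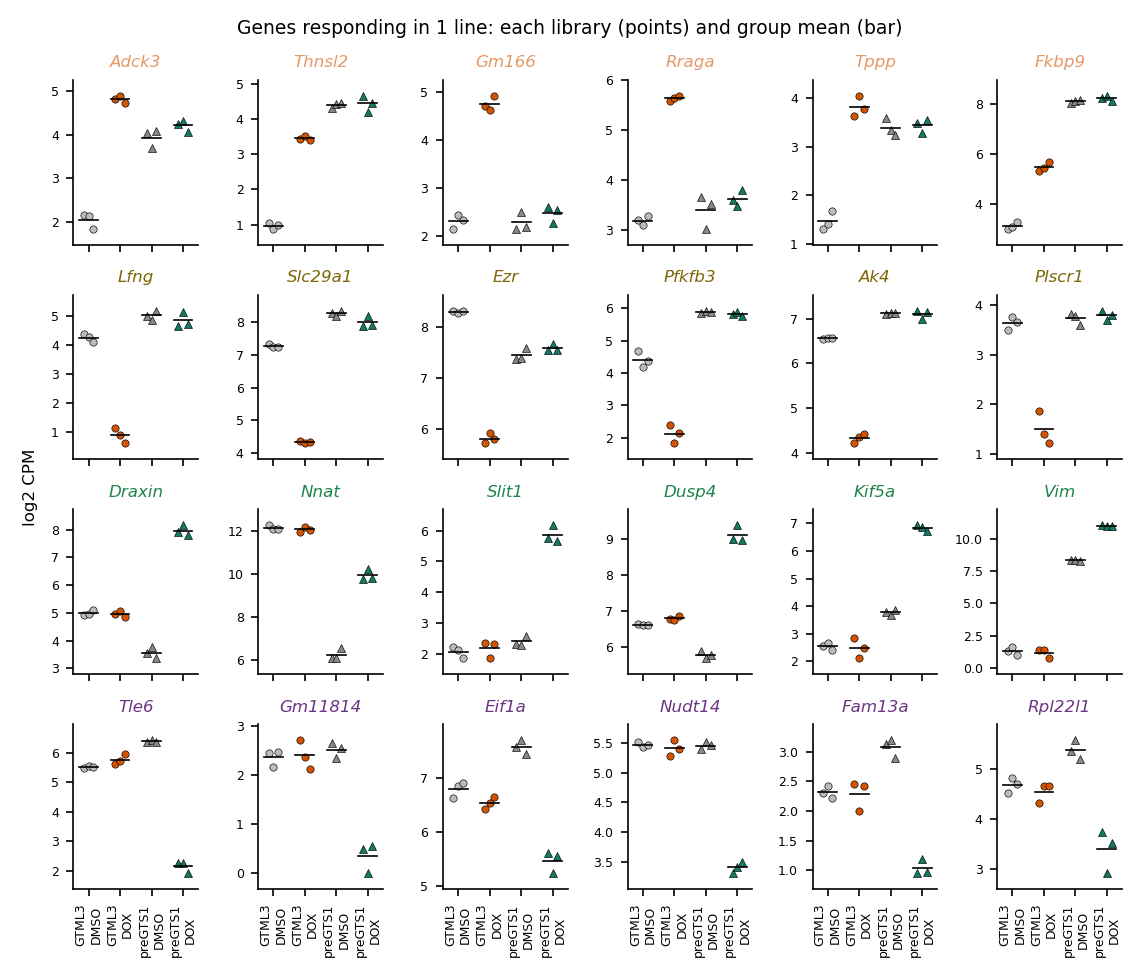
Log2 CPM of each library (points, circles for GTML3 and triangles for preGTS1) and group means (bars) for the 24 named genes that responded in GTML3 only (upper pair of rows) or preGTS1 only (lower pair), each panel with its own axis. In the responding line the DOX points lie apart from the DMSO points, which was required for naming. An example is Draxin (7.82 to 8.16 against 3.37 to 3.78 in preGTS1). The other line stays within a narrow range.

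A further group of genes responded in a line where they were read and were under 1 CPM in all 6 libraries of the other line, where any change rests on few reads. In GTML3 these were 74 genes that rose (0.465%) and 15 that fell (0.0942%), and in preGTS1 197 that rose (1.24%) and 23 that fell (0.144%). Unlike in the classes above, the difference between responses was not required to pass, so a gene here need not differ between lines. The median responses in the line under 1 CPM were 0.58, −0.05, 0.61 and −0.14 in the same order. In the line under 1 CPM, 14 of the 74 and 49 of the 197 had a group with 0 reads. In all, 17 genes of this kind also met the rule for opposite genes, Fam83f and Lpl among them, and there the second response rests on few reads. Lpl, lipoprotein lipase, had 2225 and 61 reads over 3 libraries in preGTS1 with DMSO and DOX, and 2 and 12 in GTML3. Fam83f had 343 and 36 reads in GTML3, and 2 and 16 in preGTS1.

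In GTML3, Cnga3, a channel subunit of cone photoreceptors, had 71 reads over 3 libraries with DMSO and 1552 with DOX, against 2 and 14 in preGTS1. Its DOX libraries held 5.07, 5.21 and 5.20 log2 CPM and its DMSO libraries 0.82, −0.63 and 0.27. Got1l1 (77 and 1195 reads), the calcium channel gene Cacna1g (63 and 964) and the chloride channel gene Ano2 (96 and 1405) rose with it. In preGTS1 these 3 had 6 and 3, 25 and 13, and 2 and 22 reads. Hmga2, a chromatin protein of fetal and tumor cells, fell in GTML3 from 493 to 48 reads and Plin1, a lipid droplet coat protein, from 669 to 80. Gm8079 fell from 482 to 82 reads.

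In preGTS1, Agt, angiotensinogen, had 139 reads with DMSO and 2633 with DOX, and its libraries went from 1.14, 1.07 and 1.17 to 5.56, 5.93 and 5.58 log2 CPM. In GTML3 it had 0 and 2 reads. Scg2, a secretory granule protein, had 84 and 1431 reads in preGTS1, Maf, a basic leucine zipper factor, 97 and 1585, and Apod, apolipoprotein D of glia, 89 and 1178. In GTML3 their sums were 2 and 9, 0 and 2, and 4 and 8 reads. Psrc1, a spindle protein, fell in preGTS1 from 2569 to 69 reads, with 2 and 2 in GTML3. Tdrd1, a germline Tudor protein, fell from 1025 to 64 and Lgi2 from 438 to 54. For Ano2, Hmga2, Plin1, Gm8079, Scg2, Apod, Tdrd1 and Lgi2 the difference between the responses did not pass the threshold, but it passed under 2 to 5 of 21 alternative settings for each. For Cnga3 (−2.06 ± 0.785, adjusted p = 0.0459) and Maf (2.52 ± 0.96, adjusted p = 0.046) it passed narrowly, and it missed under 15 and 13 of 21 alternative settings. That of Agt missed under 2 of 21.

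The pathway lists, chosen with earlier results of these data known, were read against all genes, where 17.1% were higher and 25.1% lower in preGTS1 and the median difference was −0.10. Among 69 axon guidance genes, 33 had a higher response in preGTS1 (47.8%) and 6 a lower one (8.7%), with a median difference of 0.77. The list held 5 opposite genes up in preGTS1 and 5 that rose in preGTS1 only, against 0.421% and 1.04% of all genes. Semaphorin Sema6d rose from 1155 to 9124 reads in preGTS1 and had 6 and 0 reads in GTML3. Nav3, a navigator protein of growing axons, rose from 383 to 1380 reads in preGTS1 and fell from 69 to 3 in GTML3. Unc5c, a netrin receptor, had responses of −1.28 and 3.63 with 66 and 20 reads in GTML3. Robo3, with more reads in GTML3, was described above.

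Among 23 transcription factors of neurons, 15 had a higher response in preGTS1 (65.2%) and none a lower one, with a median difference of 1.68. The median response was 0.00 in GTML3, where 10 rose and 8 fell, and 1.29 in preGTS1, where 16 rose and 1 fell. Of all genes, 34.5% rose and 31.4% fell in GTML3, and 34.5% rose and 33.7% fell in preGTS1. Neurod1, a proneural factor of granule cells, went from 8.35, 8.33 and 8.32 to 8.11, 7.94 and 7.87 in GTML3 and from 6.67, 6.82 and 6.73 to 7.94, 8.01 and 8.19 in preGTS1. The libraries of the lines were apart with DMSO and overlapped with DOX. Sox4, a SOX factor of young neurons, had 0.40 and 2.32, and Ebf1 0.29 and 1.2. Tbr1, a T-box factor of glutamatergic neurons, rose by 2.33 ± 0.279 in preGTS1 and was under 1 CPM in GTML3.

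Neuronal microtubule and growth cone genes had 15 of 27 members higher in preGTS1 (55.6%) and 5 lower. Of the 27, 6 rose in preGTS1 only, against 1.04% of all genes. Tubulin Tubb2b had 0.25 in GTML3 and 1.98 in preGTS1, the microtubule protein Map2 0.33 and 1.71, and the kinesin Kif5c 0.20 and 1.54. Tubb2b shares long stretches with other tubulins, between which reads could be split. Neuropeptide and granule genes had 9 of 12 higher (75.0%) and none lower. Vgf, a granule protein, rose by 1.84 ± 0.254 in preGTS1 with −0.01 ± 0.254 in GTML3, and Cpe, a peptide processing enzyme, by 1.22 ± 0.0861 with 0.19 ± 0.0861. The granule chaperone Scg5 fell from 27 to 2 reads in GTML3 and rose from 130 to 372 in preGTS1. The peptide gene Nts had 62 and 297 reads in GTML3 and 2 and 265 in preGTS1.

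Collagen and matrix genes had 32 of 74 members higher in preGTS1 (43.2%) and 6 lower (8.11%). Of the 74, 12 rose in preGTS1 while under 1 CPM in GTML3, and 3 were among the opposite genes that rose there. The shares of all genes were 1.24% and 0.421%. Olfml2b had 1113 and 14572 reads in preGTS1 and 4 and 1 in GTML3, and the collagen gene Col6a3 rose by 2.71 ± 0.354 in preGTS1. Sparcl1, a matrix protein of astrocytes, rose by 3.28 ± 0.471. Mmp17, a matrix metalloprotease, had −2.13 ± 0.341 and 2.23 ± 0.341. It was under 1 CPM in every GTML3 library, with 29 and 5 reads under DMSO and DOX, so the fall there rests on few reads. Of 12 fibroblast markers, 4 were in the table, and 3 had a higher response in preGTS1, with a median difference of 1.82 (1.56 with genes at 0 reads set at a bound of 3 reads over the group). Col3a1, a defining fibroblast collagen, did not pass and had 0 and 1 reads in GTML3 against 9089 and 13117 in preGTS1. The summed log2 CPM of the 4 lay between 7.20 and 7.45 with DMSO and between 6.10 and 6.27 with DOX in GTML3. In preGTS1 it lay between 7.85 and 8.09 with DMSO and between 8.87 and 8.92 with DOX. Its part in the matrix result was not tested.

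Glial and SOX genes had 15 of 40 members higher (37.5%) and 2 lower (5.0%), with a median difference of 0.79. Slc1a3, the glutamate transporter GLAST of astrocytes and radial glia, went from 5.48, 5.53 and 5.6 to 2.74, 3.03 and 2.88 in GTML3. In preGTS1 it went from 6.43, 6.39 and 6.22 to 7.45, 7.31 and 7.40. The difference was 3.69 ± 0.131, with no overlap in either line. Slc1a4, a neutral amino acid transporter, had −1.34 ± 0.0764 and 1.02 ± 0.0764. Of 14 oligodendrocyte markers, 8 were in the table, and 4 were higher and 2 lower in preGTS1. Pdgfra, the receptor of oligodendrocyte precursors, went from 2.93, 3.42 and 3.62 to 2.0, 1.95 and 2.24 in GTML3 and from 2.68, 1.16 and 1.64 to 5.52, 5.48 and 5.69 in preGTS1. Olig2 had −0.43 ± 0.267 and 3.71 ± 0.267, Olig1 had 545 and 2721 reads in preGTS1 and 2 and 0 in GTML3, and Enpp2 rose by 2.64 ± 0.858 in preGTS1, with a difference that missed the threshold under 9 of 21 alternative settings. Mbp, which encodes a protein of myelin, had the lower response in preGTS1, with a difference of −1.39 ± 0.296. The median difference of the 8 was 1.58 (0.91 with genes at 0 reads set at the bound). Pdgfra is also one of the fibroblast markers. The summed log2 CPM of the 8 lay between 4.87 and 5.25 with DMSO and between 5.47 and 5.57 with DOX in GTML3. In preGTS1 it lay between 5.65 and 5.82 with DMSO and between 7.35 and 7.50 with DOX. Its part in the glial result was not tested.

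NOTCH receptors are cut after ligand binding and turn on HES genes. Of 29 genes of the pathway, 10 had a higher response in preGTS1 (34.5%) and 2 a lower one. Notch1, a receptor, went from 0.90, −0.16 and 0.73 to −1.47, −1.32 and −0.39 in GTML3 and from 5.91, 5.44 and 5.81 to 7.28, 7.64 and 7.36 in preGTS1. Lfng, which modifies the receptors, fell in GTML3 only. The target Hes5 rose by 2.46 ± 0.336 in preGTS1 and had 0 reads in GTML3. Its difference between lines passed in the limma fit and missed with edgeR and DESeq2 on the recovered reads (adjusted p = 1 and 0.315). Hes1 had 12 and 1 reads in GTML3 and 2384 and 2297 in preGTS1. Tle2, a corepressor that HES proteins recruit, and Tle6, of the same Groucho family, had the lower response in preGTS1. Notch1 overlaps 0610009E02Rik in RefSeq. Of the 19 corepressors and partners of the TLE list, 9 were lower (47.4%) and 3 higher (15.8%), with Tle3 at 1.45 and 0.15 and Sin3a, a histone deacetylase scaffold, at −0.21 and −1.19.

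Growth factor feedback and immediate early genes had 20 of 40 higher in preGTS1 and 4 lower (10.0%). Of the 40, 6 rose in preGTS1 only, against 1.04% of all genes. Dusp1, a MAP kinase phosphatase, had −0.21 in GTML3 and 1.77 in preGTS1, and Klf6, a Krüppel-like factor, −0.21 and 1.36. Gadd45a, a growth arrest gene, went from 4.30, 4.49 and 4.38 to 2.41, 2.54 and 2.80 in GTML3 and from 4.97, 4.79 and 5.12 to 6.03, 6.38 and 6.02 in preGTS1. The p53 target and arrest list as a whole was split, with 11 of 38 higher (28.9%) and 9 lower (23.7%). Its opposite members were Cdkn1a, Eda2r and Plk3, and Gadd45a overlaps E230016M11Rik in RefSeq. Cdkn1a, the CDK inhibitor p21, held 2.50, 2.53 and 2.56 with DMSO and 1.57, 0.96 and 1.51 with DOX in GTML3, and 0.42, 0.58 and 0.74 and then 2.36, 2.18 and 2.17 in preGTS1. Eda2r, a TNF receptor family member, had −1.64 and 1.4. In GTML3 it had 108 reads with DMSO and 26 with DOX, and the DMSO and DOX libraries overlapped. Plk3, a polo-like kinase, had −1.0 and 1.47. Plk2, its relative, rose by 2.62 ± 0.105 in preGTS1 only.

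ATF4 is the transcription factor of amino acid shortage and of the unfolded protein response, and turns on amino acid transporters and synthesis enzymes. Of 42 of its targets, 27 had a higher response in preGTS1 (64.3%) and none a lower one, with a median of −1.08 in GTML3 and 0.01 in preGTS1. In GTML3 31 fell and 6 rose, and in preGTS1 19 fell and 16 rose, against 31.4% of all genes that fell and 34.5% that rose in GTML3 and 33.7% and 34.5% in preGTS1. The amino acid carrier Slc7a1 went from 7.53, 7.36 and 7.52 to 5.59, 5.51 and 5.41 in GTML3 and from 7.15, 7.10 and 7.16 to 6.93, 7.26 and 7.11 in preGTS1, where the groups overlapped. Slc7a5, a carrier of large neutral amino acids, had −1.37 and 0.27. Trib3, a pseudokinase induced by stress, had 0.11 and 1.22.

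Glycolysis and hypoxia genes went the other way, with 24 of 40 lower in preGTS1 and 4 higher (10.0%), and medians of −0.50 and −1.21. Ldha, lactate dehydrogenase A, chosen for mention after its values were seen, fell by 0.49 in GTML3 and by 3.10 in preGTS1. P4ha2, a collagen prolyl hydroxylase, had 1.03 and −1.62. Ndrg1, a hypoxia-induced gene, rose by 2.15 ± 0.0934 in GTML3 only. Egln3, an oxygen sensor, fell there by 1.82, as Pfkfb3 did. Lysosome and autophagy genes had 19 of 49 lower (38.8%) and 5 higher (10.2%). Lipa, lysosomal acid lipase, went from 4.45, 4.61 and 4.44 to 6.69, 6.86 and 6.84 in GTML3 and lay between 5.03 and 5.25 in preGTS1. Hexa, a hexosaminidase, had 1.13 and −0.22, Neu1, a sialidase, 1.08 and 0.30, and Cln3 3.11 and 0.34. In GTML3 Cln3 had only 17 reads with DMSO and 97 with DOX, so its rise there rests on few reads.

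Photoreceptor genes are a known feature of medulloblastomas with high MYC. Of 44 genes of a photoreceptor and retinal list, 23 had a lower response in preGTS1 (52.3%) and 8 a higher one (18.2%). Even so, most rose in both lines, 37 in GTML3 and 33 in preGTS1, against 34.5% of all genes in each line. Guca1a, an activator of guanylate cyclase in photoreceptors, went from 4.04, 3.58 and 3.87 to 5.90, 5.91 and 5.79 in GTML3, and from 52 to 3 reads in preGTS1. It overlaps 1700001C19Rik and Gm5814 in RefSeq. Npr3, a natriuretic peptide receptor held in the same list, had 1.76 ± 0.31 and −3.04 ± 0.31, with 32 and 88 reads in GTML3. Grk1, rhodopsin kinase, had 1.68 ± 0.501 and −1.24 ± 0.501 with 22 to 155 reads per group. The photoreceptor factor Otx2, chosen for mention after its values were seen, rose by 1.25 ± 0.0704 in GTML3 and by 0.38 ± 0.0704 in preGTS1.

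Lists of growth genes fell in both lines and differed in size. In GTML3 64 of 66 mitosis genes, 66 of 67 ribosome biogenesis genes and all 57 DNA replication genes fell, and in preGTS1 all of them fell, against 31.4% and 33.7% of all genes. Mitosis genes had 44 of 66 lower in preGTS1 (66.7%) and 1 higher (1.52%), with medians of −2.75 and −3.32, and ribosome biogenesis genes 42 of 67 lower (62.7%) and none higher, with −1.51 and −1.98. DNA replication genes had 25 of 57 lower (43.9%) and 7 higher (12.3%). None of these lists held a gene of the opposite or 1-line classes. Of 13 genes of the MYC and MAX network 6 were lower, Mycn among them with a difference of −1.27 ± 0.211 (adjusted p = 0.000324). The difference did not pass for Myc (−0.85 ± 0.783, with 1 and 27 reads in GTML3 and 84 and 955 in preGTS1), Sox9 (−0.12 ± 0.459) and Slc1a2 (−0.12 ± 0.154). Mgmt, a DNA repair enzyme, had −0.38 ± 0.20 in GTML3 and 1.09 ± 0.20 in preGTS1 (difference 1.47 ± 0.283).

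**Figure D4:**
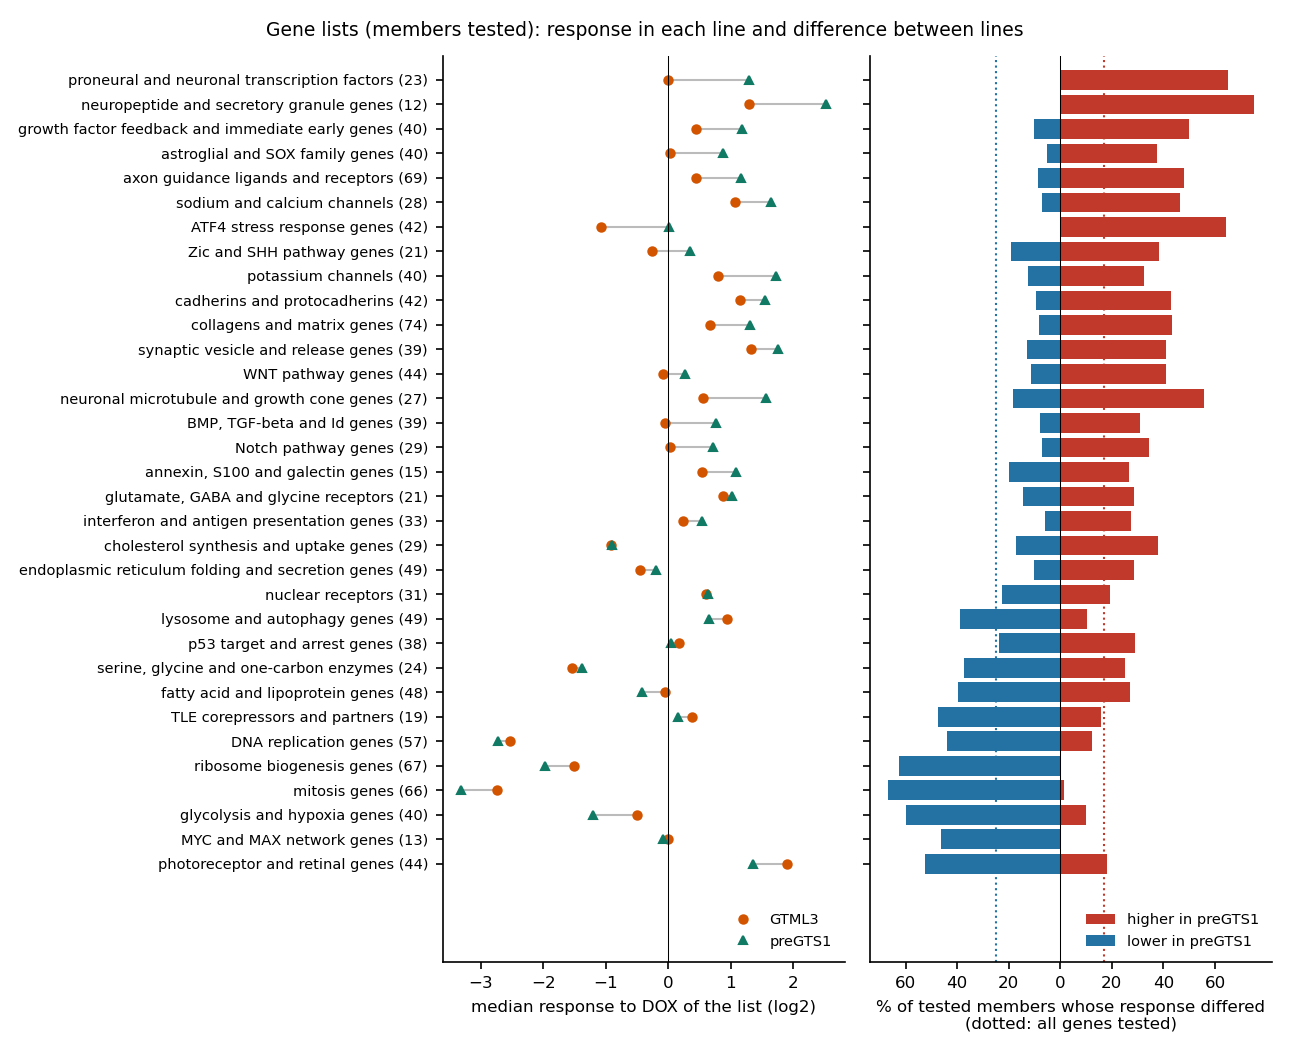
Left, median log2 response to DOX of each gene list in GTML3 (circles) and preGTS1 (triangles), with the number of members tested in brackets; right, the percent of members whose response was higher (right side) or lower (left side) in preGTS1, with dotted lines at the 17.1% and 25.1% of all genes. Lists are ordered by the median difference, with neuronal transcription factors (1.68) at the top and photoreceptor genes (−0.78) at the bottom.

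Chromatin was read in the same lines and agents by ATAC-seq, in which a transposase marks open DNA. The 2 duplicates of each condition were merged and no test was run on them. Of the genes tested, 8880 had regions within 1 kb of a start whose summed level averaged at least 10 CPM in each line. The median difference between promoter responses was 0.04 over all of these, 0.00 for genes with a higher RNA response in preGTS1 and 0.04 for genes with a lower one. Across genes the Pearson correlation of the RNA and promoter differences was −0.018, a description over genes. The class medians were −0.12 for 28 genes that rose in preGTS1 and fell in GTML3, and −0.29 for 6 genes with the reverse. With the first duplicate alone they were −0.26 and −0.44, and with the second 0.03 and −0.09, so the first of these medians changed sign. They were 0.02 and −0.23 for genes that rose or fell in GTML3 only (127 and 53 genes), and 0.02 and 0.07 for those that rose or fell in preGTS1 only (120 and 109 genes).

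Several promoters did not follow the RNA of the line. That of Lfng went from 41.2 and 40.1 CPM with DMSO to 29.9 and 20.5 with DOX in GTML3, and from 34.9 and 36.3 to 23.6 and 21.4 in preGTS1, where the RNA response did not pass. That of Ezr went from 88.7 and 73.0 to 41.3 and 56.8 in GTML3 and from 82.2 and 78.5 to 53.5 and 49.3 in preGTS1. Both promoters were lower with DOX in both lines, while both RNAs fell in GTML3 only. The Cd9 promoter went from 21.9 and 20.7 to 10.8 and 13.2 in preGTS1, where its RNA rose. Vim stood at 28.0 and 29.3 with DMSO and 24.8 and 27.8 with DOX in GTML3, and at 108 and 101 and then 94.5 and 104 in preGTS1. Its promoter differed between lines and little between agents. Draxin had 26.9 and 32.9, then 25.8 and 31.4 in GTML3, and 19.1 and 16.6, then 19.9 and 21.4 in preGTS1. Tle6 lay between 12.0 and 16.8 in all 8 libraries.

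**Figure D5:**
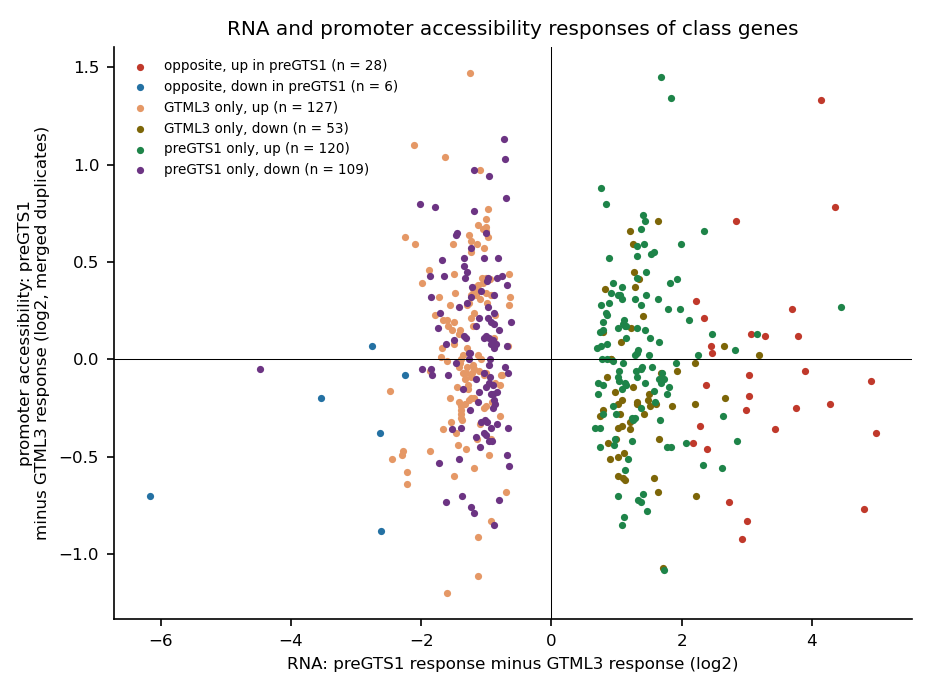
Each point is a gene of the opposite or 1-line classes with a promoter region, placed by the difference between its RNA responses (horizontal, log2) and the difference between its promoter accessibility responses (vertical, log2, merged duplicates). The points of each class lie on both sides of 0 on the vertical axis, and all 6 class medians lie between −0.29 and 0.07.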

How the data were processed

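RNA from the 12 libraries of the treated lines was sequenced on Ion Torrent, per the labels. The authors deposited log2 CPM per gene symbol. Per the submitters' processing notes, the tools included Subread 1.5.2, STAR 2.4.0, edgeR, limma, MACS2 and Bowtie2 2.2, with mm9 and mm10 as builds and no roles given. Whether counting used strand is not given in the sources used here. For ATAC-seq the authors deposited CPM per region with the nearest gene starts, and 1 line naming no region was left out. All values of both tables were whole reads within 0.1 of a read, and these recovered counts, up to 20.718 M per RNA library, served the alternatives and the sums of reads.

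The main test was limma 3.58.1 (R 4.3.3) on the deposited log2 CPM, with trend and robust options and Benjamini-Hochberg adjustment at 0.05 over 15926 genes. A filter of 1 CPM in 3 libraries removed none of them. Alternatives were other normalizations, low-value filters, folds and intervals, array weights, edgeR 4.0.16, DESeq2 1.42.0, a replicate block and leaving out each library. The method was tested on simulated data. ATAC log2 ratios used the mean of both duplicates plus 0.5 CPM, over the regions within 1 kb of a start, with no test.

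The classes, gene lists and members were chosen with earlier results of these data known, so counts within them are no independent support. Named genes were the 8 opposite genes per direction with the largest smaller response, the 6 (1 line only) and 4 (under 1 CPM in the other line) with the largest response, and up to 4 members per described list by the size of the difference, class members first. For the classes, DOX and DMSO libraries had to lie apart in each responding line, with a mean of at least 2 log2 CPM in the higher condition there, and for 1 line only a mean of at least 1 in both conditions of the other line.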

Additional observations from a re-analysis of the deposited data

Results flagged for a closer look

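Each result here stood out because the DOX response differed between the 2 lines by the test of the difference itself (limma, Benjamini-Hochberg adjusted p under 0.05 over all genes). This held for 6721 genes, of which 106 responded in opposite directions, 235 in GTML3 only and 305 in preGTS1 only. The values that follow are the preGTS1 response minus the GTML3 response on the log2 scale.

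Among the genes of the model the difference was −1.27 for Mycn and 1.47 for Mgmt. Genes that fell in GTML3 and rose in preGTS1 had 4.98 for Robo3, 3.96 for Adamts9, 3.28 for Cdh11, 3.90 for Gpr124, 3.01 for Rassf3, 3.43 for Lmo4 and 3.04 for Lama1. To these is added 2.93 for Cd9. For genes with the reverse pattern it was −6.31 for Tle2, −3.60 for Grb10, −3.54 for Ydjc, −2.52 for Kcnab1, −2.82 for Rap1gap, −2.63 for Bhlhe40 and −4.39 for Rbfox1. To these is added also −3.21 for Mylk. Where GTML3 alone rose it was −2.47 for Adck3, −2.44 for Thnsl2, −2.25 for Gm166, −2.22 for Rraga, −2.30 for Tppp and −2.21 for Fkbp9. Where GTML3 alone fell it was 3.19 for Lfng, 2.66 for Slc29a1, 2.65 for Ezr, 2.2 for Pfkfb3, 2.21 for Ak4 and 2.22 for Plscr1. Where preGTS1 alone rose it was 4.45 for Draxin, 3.75 for Nnat, 3.35 for Slit1, 3.15 for Dusp4, 3.12 for Kif5a and 2.82 for Vim. Where preGTS1 alone fell it was −4.48 for Tle6, −2.21 for Gm11814, −1.83 for Eif1a, −1.99 for Nudt14, −2.01 for Fam13a and −1.85 for Rpl22l1. Genes under 1 CPM in one line had −2.06 for Cnga3, −5.50 for Got1l1, −4.79 for Cacna1g, 6.43 for Fam83f, 3.52 for Agt, 2.52 for Maf and −5.50 for Psrc1. Also under 1 CPM in one line, −7.76 for Lpl.

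Axon guidance and neuronal transcription factor genes had 6.61 for Nav3, 5.62 for Sema6d, 4.91 for Unc5c, 2.33 for Tbr1, 1.92 for Sox4, 1.67 for Neurod1 and 0.92 for Ebf1. Microtubule and granule genes had 1.73 for Tubb2b, 1.38 for Map2, 1.33 for Kif5c, 5.92 for Scg5, 1.84 for Vgf, 1.03 for Cpe and 4.96 for Nts. Matrix and growth factor feedback genes had 5.08 for Olfml2b, 4.36 for Mmp17, 3.63 for Col6a3, 3.20 for Sparcl1, 2.99 for Gadd45a, 1.98 for Dusp1 and 1.57 for Klf6. Glial and NOTCH genes had 3.69 for Slc1a3, 2.46 for Hes5, 2.37 for Slc1a4, 3.26 for Notch1 and 3.32 for Hes1. ATF4 targets had 1.93 for Slc7a1, 1.64 for Slc7a5 and 1.11 for Trib3. Genes of the photoreceptor and retinal list and of the corepressor list had −6.03 for Guca1a, −4.80 for Npr3, −2.92 for Grk1, −1.30 for Tle3 and −0.97 for Sin3a. Hypoxia and arrest genes had −2.65 for P4ha2, −2.21 for Ndrg1, 1.71 for Egln3, 3.04 for Eda2r, 2.84 for Cdkn1a, 2.63 for Plk2 and 2.47 for Plk3. Lysosome genes had −2.27 for Lipa, −1.35 for Hexa, −0.78 for Neu1 and −2.77 for Cln3. Oligodendrocyte markers had 4.99 for Pdgfra, 4.20 for Olig1, 3.47 for Enpp2 and 4.14 for Olig2. Genes chosen for mention after their values were seen had −2.81 for Vcan, 2.08 for Robo2, −0.88 for Otx2 and −2.61 for Ldha. Where a gene had 3 reads or fewer in a group, such as Sema6d, Scg5, Olfml2b, Hes5 or Nts, the fitted value depends on the level listed for 0 reads and is no bound.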

How the results depend on the processing

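Among the alternatives run, the counts of genes whose response differed (2718 higher and 4003 lower in preGTS1) stayed within 1.5 times. The counts of opposite genes (67 and 39) moved with the treatment of low levels, and those of every class with the fold minimum. The opposite genes down in preGTS1 numbered 60 after quantile normalization. The members changed as well, also where the counts stayed close. Quantile normalization kept 59 of the 67 and 25 of the 39 opposite genes. Of genes of GTML3 only it kept 92 of 157 that rose and 55 of 78 that fell. Of genes of preGTS1 only it kept 116 of 165 that rose and 84 of 140 that fell. With log2(CPM + 1) the opposite genes numbered 26 and 14, and with a CPM of at least 1 in all 12 libraries 27 and 11. These counts use fewer or compressed low values. A 1.5-fold minimum gave 186 and 120 opposite genes, 503 and 242 genes of GTML3 only (up and down) and 365 and 571 of preGTS1 only. A 4-fold minimum gave 7 and 6, 13 and 6, and 24 and 5. Allowing the other line an interval within 2-fold gave 437 and 257 genes of GTML3 only and 527 and 559 of preGTS1 only. edgeR on recovered reads gave 69 and 41 opposite genes, and DESeq2 72 and 41.

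Leaving out each library in turn gave 2359 to 2834 genes higher and 3475 to 4068 lower. Opposite genes then numbered 61 to 89 and 36 to 44, genes of GTML3 only 130 to 172 (up) and 57 to 91 (down), and genes of preGTS1 only 136 to 188 and 106 to 171. With the replicate block the fit gave 2479 higher and 3676 lower, and 67 and 40 opposite genes. Deviations from group means correlated at −0.154 to 0.077 between same-numbered libraries, with 0 of 18 over 0.1. Between differently numbered libraries they correlated at −0.177 to 0.205, with 7 of 36 over 0.1. No shared effect of the number was thus seen, but these values cannot show whether the libraries were paired by design.

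Of 114 named genes, 99 kept the direction and side of the threshold of their difference under all alternatives run for them. Genes removed by the filter of 1 CPM in all 12 libraries, such as Robo3, were not checked under it. The count covers the call of the difference and not the class of a gene. Most of these genes were chosen by the size of their values in these data, so it is no independent support. The calls of Agt, Cnga3, Enpp2, Hes5 and Maf were lost under some, and Ano2, Apod, Gm8079, Hmga2, Lgi2, Myc, Plin1, Scg2 and Tdrd1 gained the call under some. The difference for Myc, which did not pass, was 0.20 after quantile normalization and 2.45 with log2(CPM + 1). That for Sox9, which did not pass either, was 0.14 and 0.48, and −0.49 to 0.15 with a library left out (0.10 and 0.04 without GTML3 DMSO replicates 1 and 2, 0.07 without GTML3 DOX replicate 1). The cause was not tested.

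For promoters, the median over all genes was 0.04 with the first duplicate alone and 0.05 with the second. With the second it was 0.01 and 0.06 for genes higher and lower in preGTS1, 0.10 and −0.13 for genes up and down in GTML3 only, and 0.01 for genes down in preGTS1 only. For the opposite genes up in preGTS1 it was −0.26 with the first duplicate and 0.03 with the second, so the sign turned, and for those down −0.44 and −0.09. For genes up in preGTS1 only it was 0.06 and −0.04. For genes down in preGTS1 only it was 0.03 with the first duplicate and 0.03 with regions within 5 kb.

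Limits come from depth and design. Each line is 1 line, and whether the 3 libraries of a group are technical repeats is not stated. Levels near 0 reads carry fitted differences that depend on the listed floor. The ATAC duplicates of GTML3 held 0.827 to 1.748 M reads in regions, against 5.848 to 7.773 M in preGTS1, so GTML3 promoter values are the less precise.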

Other observations

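Further gene lists were read in the same way, against 17.1% higher and 25.1% lower among all genes. Synaptic vesicle and release genes had 16 of 39 members higher and 5 lower in preGTS1, with a median difference of 0.53. Sodium and calcium channels had 13 of 28 members higher and 2 lower in preGTS1, with a median difference of 0.67. Potassium channels had 13 of 40 members higher and 5 lower in preGTS1, with a median difference of 0.59. Transmitter receptors (glutamate, GABA and glycine) had 6 of 21 members higher and 3 lower in preGTS1, with a median difference of 0.34. Cadherins and protocadherins had 18 of 42 members higher and 4 lower in preGTS1, with a median difference of 0.59. WNT pathway genes had 18 of 44 members higher and 5 lower in preGTS1, with a median difference of 0.47. Zic and SHH pathway genes had 8 of 21 members higher and 4 lower in preGTS1, with a median difference of 0.64. BMP, TGF-beta and Id genes had 12 of 39 members higher and 3 lower in preGTS1, with a median difference of 0.44. Annexin, S100 and galectin genes had 4 of 15 members higher and 3 lower in preGTS1, with a median difference of 0.42. Cholesterol genes had 11 of 29 members higher and 5 lower in preGTS1, with a median difference of 0.18. Endoplasmic reticulum folding genes had 14 of 49 members higher and 5 lower in preGTS1, with a median difference of 0.12. Interferon and antigen presentation genes had 9 of 33 members higher and 2 lower in preGTS1, with a median difference of 0.22. Fatty acid and lipoprotein genes had 13 of 48 members higher and 19 lower in preGTS1, with a median difference of −0.30. Serine, glycine and single-carbon enzymes had 6 of 24 members higher and 9 lower in preGTS1, with a median difference of −0.26. Nuclear receptors had 6 of 31 members higher and 7 lower in preGTS1, with a median difference of −0.12. With genes at 0 reads set at the bound, the median for potassium channels was 0.46. Among other markers, endothelial and mural genes had 1 of 8 higher and 1 lower, skeletal muscle genes 2 of 5 lower, and the microglial and blood genes in the table none of either.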
